A study of Mus musculus with 6 samples.

Results

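The mitochondrial ribosomal protein genes were taken as the protein-coding genes whose mouse symbol is Mrpl or Mrps followed by a number. There were 78 of them among the 53465 genes with a row in the count tables, 49 named for the large subunit (Mrpl) and 29 for the small subunit (Mrps). All were encoded in the nucleus, on 17 chromosomes, with 11 genes on chromosome 11, 8 on chromosome 17 and 7 on chromosome 6. Of the 78, 77 had enough counts to be tested, and Mrpl53 was listed at 0 counts in every library.

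The libraries came from Royan B20, a line of mouse embryonic stem cells, grown on 0.1% gelatin and passaged 7 times in R2i medium with the self-renewal cytokine LIF. R2i holds 1 µM PD0329501, as the labels spell this MEK inhibitor, and 10 µM SB431542, which blocks the receptors for TGF-beta, activin and nodal; cells of both groups received it. To this the R2i_BMPi group, here BMPi, added noggin at 250 nM, a secreted protein that binds BMPs, and dorsomorphin at 5 µM, which inhibits BMP type I receptors. The R2i_control group, here control, received R2i and LIF alone. Each group has 3 libraries that the labels call biological replicates of this line. The length of the treatment is not stated, and the parts of noggin and dorsomorphin cannot be told apart, since they were added together. Poly(A) mRNA was sequenced, and gene counts per library were 31743968, 31474666 and 33774524 in BMPi and 33507205, 35322844 and 32720441 in control.

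The mitochondrial ribosome, or mitoribosome, translates the few messenger RNAs of the mitochondrial genome, all of which encode subunits of the respiratory chain and ATP synthase. Its RNAs are made inside the organelle, while its proteins are made in the cytosol from nuclear genes and imported. Some of these proteins descend from bacterial ribosomal proteins, and others were gained later and have no bacterial counterpart. Because the subunits assemble from fixed numbers of each protein, the levels of the messenger RNAs are of interest both together and gene by gene.

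Taken as sums, the messenger RNAs of both subunits were close to the same level in the 2 groups. Levels are CPM, counts relative to library size, after TMM scaling, a normalisation between libraries. The large-subunit genes together held 2854, 3041 and 2998.2 CPM in BMPi and 3063.5, 3015.7 and 3024.3 CPM in control, or 2964 ± 98.0 CPM in BMPi and 3034 ± 25.5 CPM in control (SD, n = 3 each). BMPi replicates 1 and 3 lay below all control libraries and BMPi replicate 2 lay among them. The small-subunit genes together held 1468.1, 1541.3 and 1487.5 CPM in BMPi and 1496.4, 1488.4 and 1481.7 CPM in control, or 1499 ± 37.9 CPM in BMPi and 1489 ± 7.36 CPM in control (SD, n = 3 each). Here the control libraries lay inside the range of the BMPi libraries. The BMPi libraries were further apart than the control libraries in both sums. The ratio of the large to the small sum, which does not depend on scaling between libraries, was 1.94, 1.97 and 2.02 in BMPi and 2.05, 2.03 and 2.04 in control, so that the groups did not overlap and the BMPi mean was 0.970 times the control mean. Both sums follow the symbols. The ratio was not redone with Mrps30, Mrps18a and Mrps36 moved, whose proteins lie outside the small subunit, as described below. In such bulk libraries, fewer cells of a kind and less RNA per cell cannot be told apart.

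**Figure D1:**
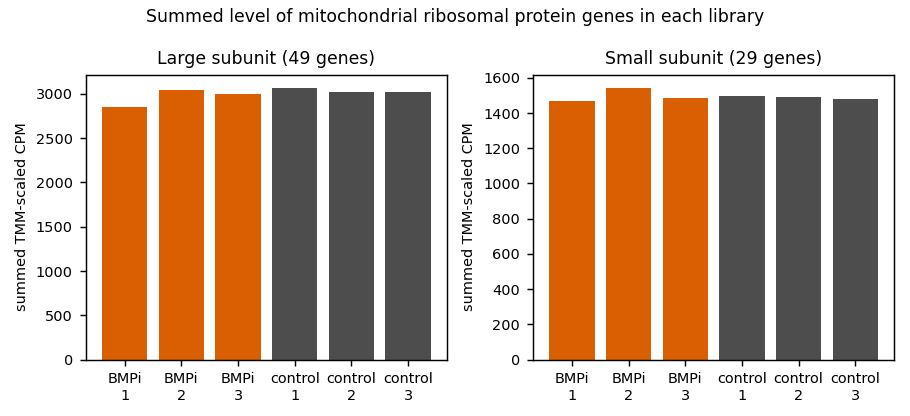
Summed TMM-scaled CPM of the large-subunit genes (left) and small-subunit genes (right), 1 bar per library, with BMPi bars left of control bars. The large-subunit sum runs between 2854 and 3041 CPM in BMPi and between 3015.7 and 3063.5 CPM in control.

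Single genes moved in both directions within each subunit, by small amounts. A gene was called when edgeR's quasi-likelihood test gave a Benjamini-Hochberg adjusted p under 0.05. In the large subunit 10 genes were higher and 10 lower in BMPi of 48 tested, and in the small subunit 11 were higher and 6 lower of 29. Of the 77 members 48.1% were called, 27.3% higher and 20.8% lower, and of all 15951 genes tested 64.2% were called, 32.5% higher and 31.7% lower. The share over all members was below the background in either direction. By subunit as named in the symbol, the higher share was 20.8% in the large and 37.9% in the small subunit, against 32.5% over all genes. The lower shares were 20.8% and 20.7%. The small-subunit rises include Mrps30 and Mrps36, whose proteins lie outside that subunit, as described below. The shares were not redone without them, and these differences were not tested. The median log2 fold change was 0.03 in the large subunit and 0.08 in the small subunit, beside -0.00 over all genes tested. Those medians are small against the libraries: the median large-subunit gene stood at -0.02, 0.06 and 0.01 (log2) from its control mean in BMPi replicates 1, 2 and 3, and the median small-subunit gene at 0.01, 0.18 and 0.05. Without BMPi replicate 2 the medians were 0.01 and 0.03.

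The counts of calls moved with the scaling and with single libraries. With library totals in place of TMM, 4 large-subunit genes were higher and 13 lower, the large-subunit median was -0.02, and 8 small-subunit genes were higher and 10 lower. With offsets for GC content and length, 19 large-subunit genes were higher and 10 lower, and 12 small-subunit genes were higher and 4 lower. Leaving out control replicate 1, 2 or 3 left 6 higher large-subunit genes in each case, and leaving out control replicate 2 left 7 higher small-subunit genes. None of the 37 called members changed direction under any of the 16 alternatives, and 24 were called under all of them.

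The changes of the members were small. No tested member changed 2-fold, against 15.7% of all genes tested, and 3 members (3.9%) changed 1.5-fold, against 32.7% of all genes. The median absolute log2 fold change was 0.14 over the members, 0.11 in the large and 0.20 in the small subunit, against 0.37 over all genes tested. The members' mean levels lay between 13.5 and 169.2 CPM, with a median of 55.02 CPM against 19.6 CPM for all genes tested. Among the 7519 tested genes in that range of levels, 70.7% were called, 4.95% changed 2-fold, 18.1% changed 1.5-fold and the median absolute log2 fold change was 0.27. These shares are descriptions and were not tested.

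**Figure D2:**
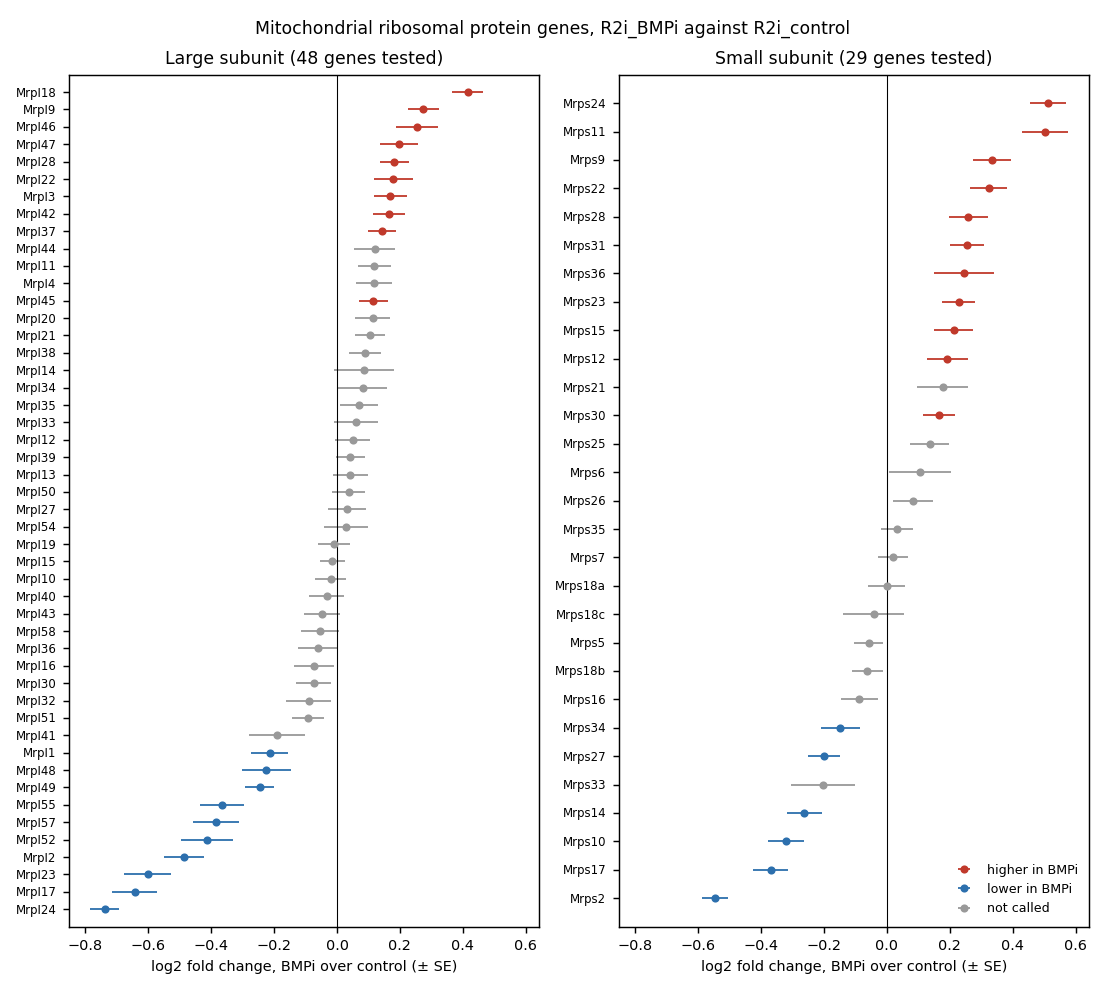
Log2 fold change of BMPi over control (horizontal axis, ± SE) for each of 48 large-subunit genes (left) and 29 small-subunit genes (right), coloured by the call. Most genes lie within 0.4 of 0, with Mrpl24 lowest at -0.74 and Mrps24 highest at 0.51.

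Counts of groups that did not overlap gave a like picture. In 24 members all BMPi libraries lay above all control libraries, and in 18 members all lay below, out of 77. Over all genes tested the groups did not overlap in 68.6%, with BMPi above control in 34.5% and below in 34.1%. In the large subunit 12 genes lay above, 11 below and 25 overlapped, and in the small subunit 12 lay above, 7 below and 10 overlapped. Mrpl45 was called higher although its groups overlapped.

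The largest fall was that of Mrpl24 (chr3:87919506-87923672, plus strand, GRCm38), whose product is the mitochondrial form of the bacterial L24 protein near the mouth of the exit tunnel for the new peptide. It measured 101, 110.2 and 103 CPM in BMPi and 174, 174 and 175 CPM in control, a fall by 0.74 on the log2 scale (SE 0.045, adjusted p = 1.56e-09). The mean fell by 40.1%, and the BMPi libraries stood far outside the control spread. An antisense gene, Rrnad1, overlaps 26.3% of its exon length, so part of its count is uncertain.

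Mrpl17 and Mrpl23 encode 2 more proteins of the exit-tunnel region, related to bacterial L17 and L23. Mrpl17 measured 64.6, 83.7 and 68.7 CPM in BMPi and 115, 110.7 and 113 CPM in control (log2 fold change -0.64, SE 0.072, adjusted p = 1.29e-06). Mrpl23 measured 18.5, 16.3 and 19.1 CPM in BMPi and 27.7, 26.8 and 27.4 CPM in control (-0.60, SE 0.076, adjusted p = 4.34e-06). In both genes every BMPi library was below every control library, and BMPi replicate 2 was the highest BMPi library for Mrpl17 and the lowest for Mrpl23. Mrpl24, Mrpl17 and Mrpl23 were the 3 members that changed 1.5-fold. In the small subunit the largest fall was that of Mrps2, whose product corresponds to bacterial S2 at the junction of the head and the body. Mrps2 (chr2:28468066-28471178, plus strand) measured 94.0, 94.8 and 94.3 CPM in BMPi and 136, 139.7 and 137 CPM in control (-0.55, SE 0.042, adjusted p = 1.76e-08).

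The largest rises were in the small subunit. Mrps24 (chr11:5703983-5715680, minus strand) encodes the mitochondrial form of bacterial S3 and measured 77.0, 79.1 and 69.1 CPM in BMPi and 52.8, 53.3 and 51.8 CPM in control (0.51, SE 0.057, adjusted p = 1.26e-06). Urgcp shares the strand and 15.4% of its exon length. Mrps11, the mitochondrial form of bacterial S11 on the platform of the subunit, measured 33.0, 37.8 and 36.8 CPM in BMPi and 26.5, 23.5 and 25.9 CPM in control (0.50, SE 0.073, adjusted p = 1.86e-05). All BMPi libraries were above all control libraries for both genes.

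Promoter windows are shown for 4 of these genes, chosen as those with the largest changes in either direction whose RefSeq window lies close to the gene start in GENCODE. Each window runs from 250 bases before to 50 bases after the RefSeq start on GRCm38.p6, written 5′ to 3′ on the strand of the gene. Capitals mark a match to a searched motif. The window of Mrpl24 is chr3:87919294-87919593 on the plus strand, that of Mrpl17 is chr7:105811038-105811337 on the minus strand, that of Mrps2 is chr2:28467816-28468115 on the plus strand and that of Mrps11 is chr7:78782881-78783180 on the plus strand.
Mrpl24: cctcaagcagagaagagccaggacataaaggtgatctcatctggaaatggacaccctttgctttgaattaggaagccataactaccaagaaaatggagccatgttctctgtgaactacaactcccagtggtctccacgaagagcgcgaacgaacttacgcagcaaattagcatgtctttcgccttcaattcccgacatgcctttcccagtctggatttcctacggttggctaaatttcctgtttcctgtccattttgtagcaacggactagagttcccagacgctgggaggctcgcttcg
Mrpl17: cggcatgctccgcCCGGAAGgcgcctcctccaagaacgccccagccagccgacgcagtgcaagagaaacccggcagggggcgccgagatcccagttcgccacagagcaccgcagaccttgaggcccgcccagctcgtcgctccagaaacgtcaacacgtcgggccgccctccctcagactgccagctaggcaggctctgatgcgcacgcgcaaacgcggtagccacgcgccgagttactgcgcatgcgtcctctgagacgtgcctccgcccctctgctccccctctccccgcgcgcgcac
Mrps2: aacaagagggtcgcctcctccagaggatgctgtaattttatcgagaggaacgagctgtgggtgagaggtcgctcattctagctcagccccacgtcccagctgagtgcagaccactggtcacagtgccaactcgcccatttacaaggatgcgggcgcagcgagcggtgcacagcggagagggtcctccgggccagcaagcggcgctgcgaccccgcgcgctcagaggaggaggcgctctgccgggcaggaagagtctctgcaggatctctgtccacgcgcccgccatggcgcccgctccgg
Mrps11: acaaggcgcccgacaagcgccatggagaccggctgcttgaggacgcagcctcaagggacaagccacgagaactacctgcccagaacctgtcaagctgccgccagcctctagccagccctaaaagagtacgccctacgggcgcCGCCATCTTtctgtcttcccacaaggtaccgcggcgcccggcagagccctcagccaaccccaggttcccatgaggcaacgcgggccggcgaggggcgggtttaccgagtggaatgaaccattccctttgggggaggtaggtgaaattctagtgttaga

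The capitals in the Mrpl17 window are CCGGAAG, the core bound by ETS factors such as GABPA, and those in the Mrps11 window are the reverse complement of AAGATGGCG, the core bound by YY1. The windows of Mrpl24 and Mrps2, which fell most in each subunit, hold none of the 5 motifs searched on both strands. RefSeq windows were found for 69 of the 78 members, and 27025 genes in all. CCGGAAG was found in 24 of the 69 (34.8%), against 9.16% of all windows and 17.6% of the 11474 windows of tested genes. AAGATGGCG was found in 8 (11.6%), against 1.49% of all windows and 2.95% of those of tested genes. The NRF1 palindrome, GCGCA joined to its reverse complement TGCGC, was found in 3 (4.35%), against 0.973% and 1.98%. Only these exact letters were searched. Near forms, such as GCGCACGCGC in the Mrpl17 window, were neither counted nor capitalised, so the share does not cover all NRF1-type sequences. Shares were closer to those of all genes for CCAAT, the NFY box, with 27 members (39.1%) against 37.9% and 39.3%, and for the E-box CACGTG, with 5 members (7.25%) against 7.20% and 10.0%. The ETS core was present in 6 of 20 windows of higher members, 4 of 15 of lower members and 13 of 33 of members not called. The YY1 core was present in 4, 1 and 3 of the same windows. A match describes letters in the window and not a bound site, and these shares were not tested.

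**Figure D3:**
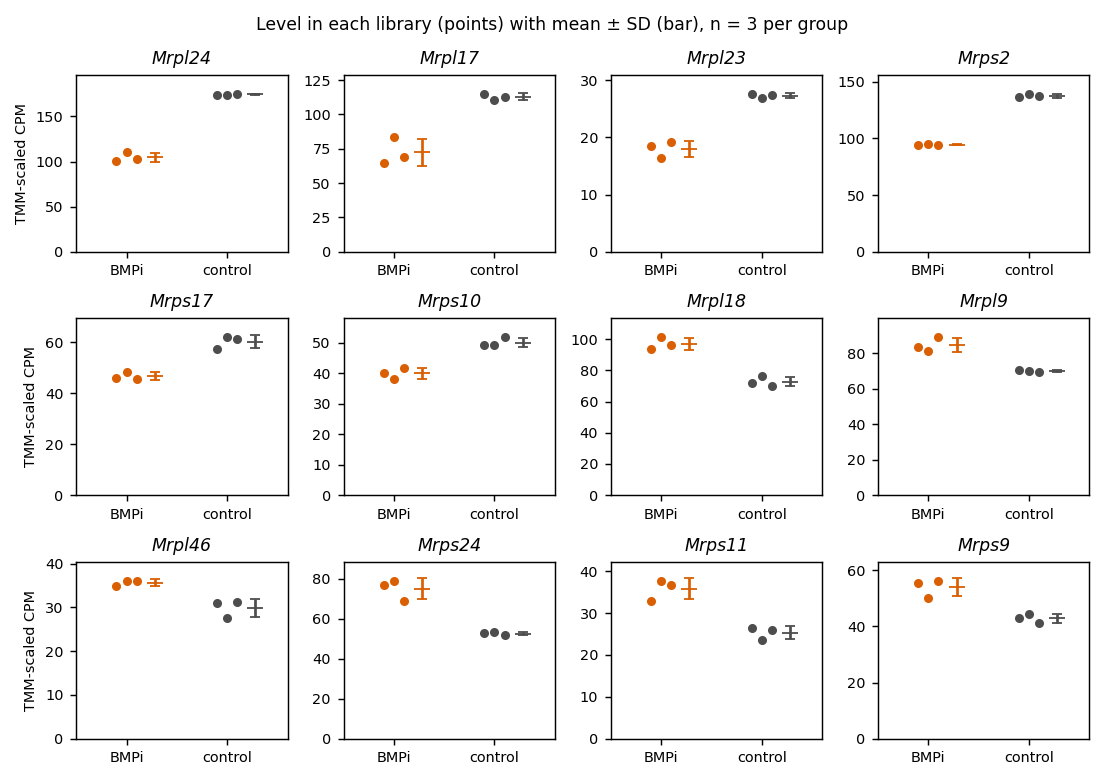
TMM-scaled CPM (vertical axis, from 0) in each of 3 BMPi libraries (left) and 3 control libraries (right), with mean ± SD beside the points, for the 3 largest falls and 3 largest rises of each subunit. The groups do not overlap in any of the 12 genes.

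Behind those 3 falls in the large subunit stood 7 smaller ones. Mrpl2, the mitochondrial form of bacterial L2 near the peptidyl transferase centre, measured 66.0, 79.4 and 81.2 CPM in BMPi and 105, 106 and 106 CPM in control (-0.49, SE 0.064, adjusted p = 7.11e-06). Mrpl52 and Mrpl57 encode proteins with no bacterial counterpart. Mrpl52 measured 33.2, 39.3 and 30.3 CPM in BMPi and 47.3, 46.3 and 43.2 CPM in control (-0.41, SE 0.081, adjusted p = 0.000348), and Mrpl57 measured 28.3, 31.7 and 25.9 CPM in BMPi and 37.9, 38.0 and 36.2 CPM in control (-0.38, SE 0.073, adjusted p = 0.000268). The groups did not overlap for either gene. Mrpl55 measured 24.7, 27.7 and 27.9 CPM in BMPi and 33.2, 34.1 and 36.4 CPM in control (-0.37, adjusted p = 0.000256), and Mrpl49 measured 84.0, 80.7 and 84.0 CPM in BMPi and 101, 99.0 and 94.7 CPM in control (-0.25, adjusted p = 0.000257). Mrpl48 (-0.22) and Mrpl1 (-0.21), which encodes the protein of the mobile L1 stalk, fell least. Their groups were apart too. Mrpl48 lost its call without BMPi replicate 1 (adjusted p = 0.062), without control replicate 1 (0.0625) and without control replicate 2 (0.0602).

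The largest rise in the large subunit was smaller than its 4 largest falls. Mrpl18, whose product sits in the central protuberance, measured 93.8, 101 and 95.9 CPM in BMPi and 72.0, 76.1 and 70.1 CPM in control (0.41, SE 0.051, adjusted p = 3.07e-06). Tcp1, on the other strand, overlaps 10.1% of its exon length. Mrpl9 measured 83.7, 81.2 and 89.1 CPM in BMPi and 70.4, 70.1 and 69.5 CPM in control (0.27, SE 0.050, adjusted p = 0.000163). Mrpl46 measured 34.8, 36.1 and 36.0 CPM in BMPi and 31.0, 27.5 and 31.2 CPM in control (0.25, SE 0.066, adjusted p = 0.00333), and its 5′ end overlaps that of Mrps11 on the other strand. All BMPi libraries exceeded all control libraries for these 3 genes. Mrpl47 measured 41.9, 43.2 and 45.1 CPM in BMPi and 38.8, 38.8 and 36.1 CPM in control (0.20, adjusted p = 0.00875), and Mrpl28 measured 89.2, 94.5 and 94.6 CPM in BMPi and 82.1, 81.0 and 82.4 CPM in control (0.18, adjusted p = 0.00273). The groups were again apart, by a few CPM. Mrpl47 lost its call with library totals and without control replicate 3. Mrpl22 measured 38.4, 43.7 and 42.4 CPM in BMPi and 36.7, 36.3 and 37.0 CPM in control (0.18, adjusted p = 0.0200), and its call was lost with library totals and without BMPi replicate 3 or any 1 control library. Mrpl3 (0.17), Mrpl42 (0.17), Mrpl37 (0.14) and Mrpl45 (0.12) completed the list, and each of these 4 lost its call under at least 2 of the 16 alternatives.

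Read by place in the particle, neighbours in the large subunit went different ways. Around the exit of the peptide tunnel, Mrpl24, Mrpl17 and Mrpl23 fell by 0.74, 0.64 and 0.60 on the log2 scale. In the same region Mrpl22, Mrpl47 (the mitochondrial form of bacterial L29) and Mrpl45, which anchors the ribosome to the inner membrane, were higher by 0.18, 0.20 and 0.12. In the central protuberance Mrpl18 (0.41) and Mrpl46 (0.25) were called higher and Mrpl48 (-0.22) lower, while Mrpl27 (0.03), Mrpl38 (0.09), Mrpl40 (-0.03) and Mrpl58 (-0.05), a peptidyl-tRNA hydrolase built into the ribosome, were not called. In the stalk that binds translation factors, Mrpl10 (-0.02), Mrpl11 (0.12) and Mrpl12 (0.05) were not called. These groupings by place were made after the values were seen and do not list every protein of a region. Called members left unplaced include falls, such as Mrpl55 and Mrpl52, and rises, such as Mrpl9 and Mrpl28. The balance of rises and falls within a region is therefore not given.

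Mrpl12 encodes the stalk protein that has also been described as a partner of the mitochondrial RNA polymerase. It measured 96.6, 94.9 and 110 CPM in BMPi and 98.0, 97.5 and 95.9 CPM in control (0.05, SE 0.055, adjusted p = 0.448). The highest BMPi library set the sign, and the value was -0.02 without BMPi replicate 3 and -0.01 with library totals. Mrpl41, whose product has also been linked to cell death, measured 15.7, 18.9 and 17.1 CPM in BMPi and 20.1, 20.9 and 18.02 CPM in control, with overlapping groups (-0.19, SE 0.089, adjusted p = 0.0714). Mrpl15 was among the most tightly measured members, with 154, 155 and 154 CPM in BMPi and 158, 155 and 155 CPM in control. The approximate 95% interval of its log2 fold change was -0.09 to 0.06.

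In 26 of the 28 large-subunit genes that were not called, the approximate 95% interval of the change lay within 1.2-fold either way. Mrpl14 and Mrpl41 were the exceptions. The same held for 9 of 12 small-subunit genes, all but Mrps6, Mrps21 and Mrps33. The intervals use a normal approximation and are somewhat narrower than the quasi-likelihood test implies. That of Mrps33, -0.40 to -0.01, excludes 0 although its unadjusted edgeR p was 0.0614. That of Mrps25 ended at 0.258, just inside the log2 limit of 0.263, so these counts are approximate. A gene that was not called is not shown to be equal in both groups, and the intervals give roughly the sizes that remain possible.

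In 6 of the 40 members that were not called, the groups still did not overlap. Over all genes tested, called or not, this was so in 68.6%. The share among all genes that were not called was not counted, so the 6 have no background of their own. Mrpl21 measured 68.8, 68.5 and 68.5 CPM in BMPi and 64.5, 63.2 and 63.7 CPM in control (0.11, adjusted p = 0.0643). Mrpl11 (0.12), Mrpl20 (0.11) and Mrps25 (0.14) were likewise higher in every BMPi library without being called, and Mrpl51 (-0.09) and Mrps18b (-0.06) lower. Mrps25 was called without BMPi replicate 1 (adjusted p = 0.0247), and an antisense gene, Nr2c2, overlaps 69.8% of its exon length. The remaining members that were not called had overlapping groups, with log2 fold changes between -0.20 (Mrps33) and 0.18 (Mrps21).

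Other rises in the small subunit were those of Mrps9, Mrps22, Mrps28 and Mrps31. Mrps9, the mitochondrial form of bacterial S9 in the head, measured 55.3, 50.3 and 56.3 CPM in BMPi and 42.9, 44.5 and 41.1 CPM in control (0.33, SE 0.060, adjusted p = 0.000166). Mrps22, which has no bacterial counterpart, measured 44.2, 41.9 and 40.9 CPM in BMPi and 34.7, 34.3 and 32.5 CPM in control (0.32, SE 0.060, adjusted p = 0.000212). The BMPi libraries lay above the control libraries throughout both genes. Mrps28, which encodes the mitochondrial relative of bacterial S1, measured 35.9, 39.1 and 37.5 CPM in BMPi and 32.3, 31.4 and 30.4 CPM in control (0.26, adjusted p = 0.00170). Mrps31, with no bacterial counterpart, measured 62.0, 62.3 and 61.2 CPM in BMPi and 52.2, 48.99 and 54.3 CPM in control (0.25, adjusted p = 0.000712). In both the spread within groups was smaller than the gap between them. Mrps36 (0.25), Mrps23 (0.23), Mrps15 (0.21), Mrps12 (0.19) and Mrps30 (0.17) were called as well. Mrps12 encodes the protein at the decoding centre where codon and anticodon pair. It measured 51.4, 61.5 and 57.1 CPM in BMPi and 51.2, 48.1 and 49.5 CPM in control (adjusted p = 0.0161), and the lowest BMPi library was close to the highest control library. Its call was lost under 4 of the 16 alternatives, among them library totals (adjusted p = 0.0903) and leaving out control replicate 2 (0.0917).

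Falls in the small subunit after Mrps2 were those of Mrps17, Mrps10, Mrps14, Mrps27 and Mrps34. Mrps17, the mitochondrial form of bacterial S17, measured 46.1, 48.4 and 45.7 CPM in BMPi and 57.3, 62.0 and 61.4 CPM in control (-0.37, SE 0.055, adjusted p = 2.67e-05). Mrps10, the form of bacterial S10 in the head, measured 40.1, 38.2 and 41.8 CPM in BMPi and 49.2, 49.04 and 51.8 CPM in control (-0.32, SE 0.058, adjusted p = 0.000158). Both pairs of groups were apart. Mrps14, another head protein, measured 51.3, 54.5 and 58.3 CPM in BMPi and 65.9, 64.3 and 66.6 CPM in control (-0.26, adjusted p = 0.000737). Mrps27, a pentatricopeptide repeat protein that binds RNA, measured 64.9, 70.1 and 69.5 CPM in BMPi and 77.0, 76.8 and 81.1 CPM in control (-0.20, adjusted p = 0.00289). Neither gene had overlapping groups. Mrps27 lost its call with GC and length offsets, alone (edgeR adjusted p = 0.0502) and with the replicate block (0.0728). Its smallest fall under the 16 alternatives was -0.104. Mrps34 (-0.15) was at the threshold with an adjusted p of 0.0499. It was called under 6 of the 16 alternatives, and Nme3 on its strand and Mapk8ip3 on the other overlap 37.0% and 63.4% of its exon length.

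Several symbols do not match the place or the job of the protein. Mrps30 and Mrps18a encode proteins that structures of the mammalian ribosome place in the large subunit. Mrps30 measured 79.7, 76.8 and 71.9 CPM in BMPi and 67.9, 68.0 and 67.7 CPM in control (0.17, adjusted p = 0.0101), with every BMPi library above every control library. Its call was lost under 3 of the 16 alternatives. Mrps18a measured 37.5, 39.0 and 39.2 CPM in BMPi and 39.3, 39.8 and 36.6 CPM in control. Its log2 fold change was -0.00 (approximate 95% interval -0.12 to 0.12). Its paralogs Mrps18b (-0.06) and Mrps18c (-0.04) were not called either. All 3 are relatives of bacterial S18. Mrps18b was lower in every BMPi library, and with library totals it was called lower (-0.12, adjusted p = 0.0414), the only 1 of the 16 alternatives that called any of the 3. The product of Mrps36 is now known as a component of the 2-oxoglutarate dehydrogenase complex of the citric acid cycle. It measured 14.8, 18.03 and 15.5 CPM in BMPi and 13.8, 14.3 and 12.6 CPM in control (0.25, SE 0.095, adjusted p = 0.0327), and lost its call under 5 of the 16 alternatives.

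Genes with a bacterial counterpart and genes with none listed moved in both directions. Their shares stand beside 32.5% higher and 31.7% lower over all genes tested, and differences from those were not tested. Of 30 large-subunit genes with a bacterial counterpart, 6 (20%) were higher and 6 (20%) lower (median log2 fold change 0.05). Of 18 tested with none listed, 4 (22.2%) were higher and 4 (22.2%) lower (median -0.00). Of 18 small-subunit genes with a counterpart, the 3 relatives of S18 included, 6 (33.3%) were higher and 4 (22.2%) lower (median 0.01). Of 11 with none listed, 5 (45.5%) were higher and 2 (18.2%) lower (median 0.14). Those 5 include Mrps30 and Mrps36, and the 18 include Mrps18a, whose proteins lie outside the small subunit, as described above. The counts were not redone without these genes. With library totals, 3 were higher and 7 lower of the large-subunit genes with a counterpart and 1 higher and 6 lower of those with none, and in the small subunit 5 were higher and 7 lower with a counterpart and 3 higher and 3 lower with none. With GC and length offsets 13 large-subunit genes with a counterpart were higher, and 0 small-subunit genes with none were lower, where the DESeq2 test gave 1. Leaving out control replicate 3 left 3 higher large-subunit genes with a counterpart, and leaving out control replicate 1 or 2 left 2 or 1 higher of those with none; in the small-subunit genes with none, 3 higher were left without control replicate 2 or 3, and 1 lower without BMPi replicate 3 or any 1 control library.

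Per kilobase of annotated exon, the members spanned a wide range of levels in both groups. The large-subunit genes ran between 2.53 (Mrpl48) and 69.4 (Mrpl18) CPM per kb in BMPi and between 2.95 (Mrpl48) and 90.4 (Mrpl2) CPM per kb in control, with medians of 27.2 in BMPi and 26.7 in control. The small-subunit genes ran between 4.95 (Mrps10) and 54.5 (Mrps12) CPM per kb in BMPi and between 5.37 (Mrps25) and 47.7 (Mrps12) CPM per kb in control, with medians of 16.8 in BMPi and 16.7 in control. Mrpl2 ranked 5 of the large subunit in BMPi, at 64.6 ± 7.09 CPM per kb, and was highest in control, at 90.4 ± 0.613 CPM per kb (SD, n = 3 each). Mrpl18 was highest in BMPi, at 69.4 ± 2.77 CPM per kb, against 52.0 ± 2.21 CPM per kb in control. In BMPi the first 5 large-subunit genes, Mrpl18, Mrpl45, Mrpl28, Mrpl12 and Mrpl2, differed by less than their spread from one to the next. The spreads (mean ± SD) of neighbours in the order met for 37 of 47 pairs of large-subunit neighbours in BMPi and 24 of 47 in control, and for 21 of 28 pairs of small-subunit neighbours in BMPi and 17 of 28 in control. At the low end, Mrpl33 stood at 3.57 ± 0.217 CPM per kb in BMPi and 3.42 ± 0.0336 in control, and Mrps35 at 6.85 ± 0.234 CPM per kb in BMPi and 6.70 ± 0.144 in control (SD, n = 3 each). Mrpl48, Mrpl33 and Mrps35 have long annotated exons, and exon length counts every annotated isoform, so the low levels per kb depend on the annotation.

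**Figure D4:**
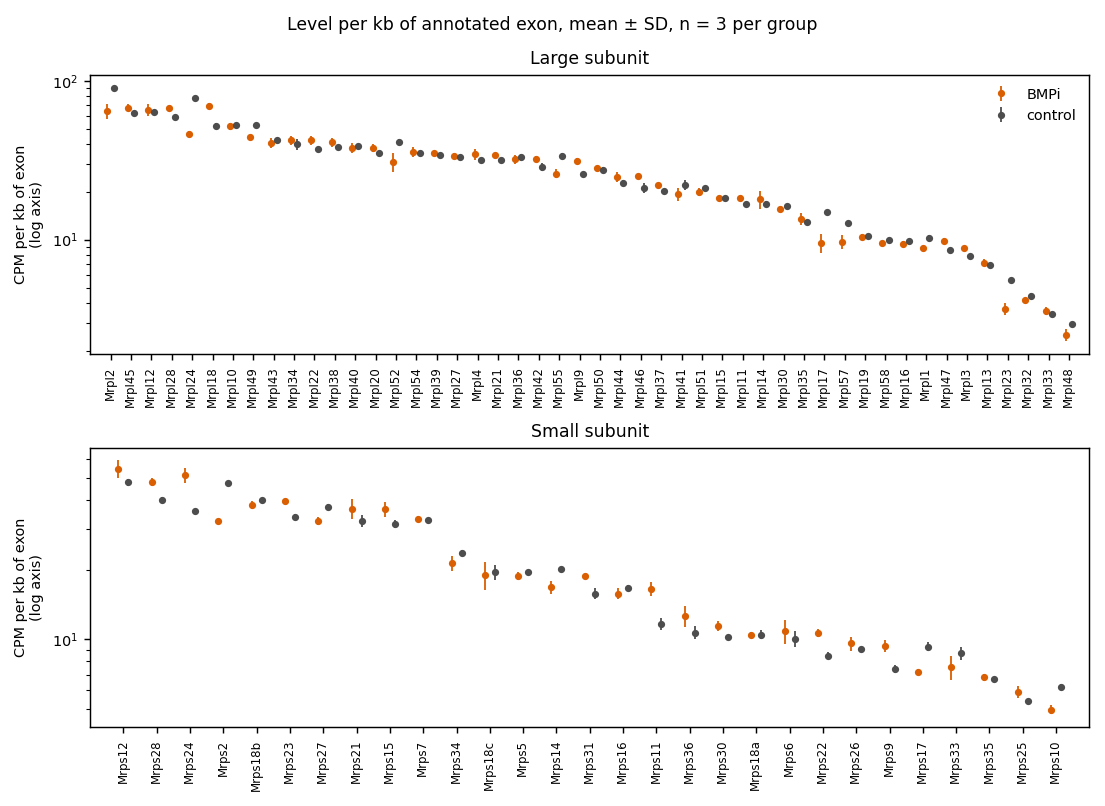
Mean ± SD (n = 3) of CPM per kb of exon on a log axis for each tested large-subunit gene (top) and small-subunit gene (bottom), BMPi left of control, ordered by the sum of both groups. Mrpl2, Mrpl24 and Mrps2 lie well below their control level in BMPi, and Mrpl18 and Mrps24 above theirs.

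Mrpl53 could not be measured. Its gene lies at chr6:83109040-83109939 on GRCm38, and Gm42688 on its strand covers 88.0% of its exon length. It was listed at 0 in all 6 libraries. In 33 of the 78 members (42.3%) an exon overlaps another gene, against 35.7% of tested protein-coding genes. Overlaps not given above include antisense genes over 24.2% of the exon length of Mrpl47, 24.2% of Mrps27, 30.5% of Mrps18b and 5.8% of Mrpl9. A gene on the same strand covers 23.2% of Mrps18c. A member named without an overlap is thus not always free of it. The 45 members with no overlap counted 13 higher (28.9%) and 11 lower (24.4%). All genes tested were at 32.5% higher and 31.7% lower, and differences from those shares were not tested. In the large subunit 5 (18.5%) of these members were higher and 7 (25.9%) lower (27 genes, median 0.03). In the small subunit 8 (44.4%) were higher and 4 (22.2%) lower (18 genes, median 0.11). The 5 became 9 without BMPi replicate 1, 3 without BMPi replicate 3 or control replicate 3, 2 without control replicate 1 and 1 without control replicate 2, and the 8 became 5 without control replicate 2. With library totals the counts were 1 higher and 9 lower in the large subunit and 6 higher and 7 lower in the small subunit.

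The members were compact genes. Their median exon length was 2533 bases in 5 exon blocks, against 4350 bases in 10 blocks for tested protein-coding genes, with GC contents of 49.7% and 50.2%. A start of another protein-coding gene on the opposite strand lay within 1000 bp upstream, or up to 100 bases inside the gene, in 19 members (24.7%), against 10.4% of tested protein-coding genes, and 17 of them were within 200 bp. Of those 19 members, 2 (10.5%) were higher and 5 (26.3%) lower in BMPi, against 28.7% higher and 37.5% lower of the 1447 tested protein-coding genes with such a start. The log2 fold change was below 0 in 15 of the 19 (78.9%), against 54.4% of those genes and 50.3% of all genes tested, and these differences were not tested. With library totals 0 were higher and 10 lower, and with GC and length offsets 2 were higher and 3 lower. Leaving out BMPi replicate 2 or control replicate 1 or 3 left 1 higher, and leaving out control replicate 2 left 0.

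Genes of such pairs moved both alike and apart. In 1 pair both were higher: Mrps12 (0.19) and Sars2 (0.15), the mitochondrial seryl-tRNA synthetase gene, whose starts are 172 bp apart. In 1 pair both were lower, Mrps34 (-0.15) and Eme2 (-1.93). In 4 pairs both were called in opposite directions: Mrpl37 (0.14) with Cyb5rl (-0.45), Mrpl49 (-0.25) with Fau (0.15), Mrpl57 (-0.38) with Ska3 (0.25), and Mrps27 (-0.20) with Ptcd2 (0.31). The partner changed while the member was not called in 9 pairs. Among these were Mrps18b (-0.06) beside Ppp1r10 (1.25) at 45 bp, and Mrpl32 (-0.09) beside Psma2 (0.56) at 75 bp.

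Another 5 mitoribosome proteins carry symbols outside the Mrp series. Of Dap3, Ptcd3, Chchd1, Aurkaip1 and Gadd45gip1, 0 were called by edgeR, beside 64.2% of all genes tested, a difference that was not tested. Their log2 fold changes lay between -0.16 (Chchd1) and 0.11 (Aurkaip1). At an unadjusted p under 0.05 edgeR counted 1 of them (Chchd1). At an adjusted p under 0.05 DESeq2 called 0 and limma-voom called 1 lower. With GC and length offsets 2 were called higher and 0 lower, and the median was 0.023, against -0.03 without them. Leaving out BMPi replicate 1 gave 1 higher and leaving out BMPi replicate 2 gave 1 lower.

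More of the genes that build the mitoribosome were lower than higher. Of 26 assembly factors and RNA-modifying enzymes, 3 (11.5%) were higher and 13 (50%) lower in BMPi (median log2 fold change -0.18). Over all genes tested 32.5% were higher and 31.7% lower, and the difference was not tested. The sum of the 26 genes was 982, 1026 and 1020.0 CPM in BMPi and 1113, 1102 and 1108 CPM in control. Trub2, a pseudouridine synthase, measured 66.1, 66.6 and 68.6 CPM in BMPi and 118, 111 and 115 CPM in control (-0.77, adjusted p = 1.18e-09). Mettl15, which methylates the small-subunit RNA, measured 3.23, 2.86 and 2.68 CPM in BMPi and 7.84, 7.39 and 8.20 CPM in control (-1.42, adjusted p = 2.31e-07). Noa1, a GTPase needed for the small subunit, went the other way, with 32.6, 34.8 and 38.0 CPM in BMPi and 20.4, 19.0 and 20.2 CPM in control (0.82, adjusted p = 9.43e-08). In all 3 genes the groups were apart. Exons of Trub2 and Mettl15 overlap antisense genes. Under the 16 alternatives 3 assembly genes were higher and 10 to 15 lower.

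Genes of the translation cycle also moved both ways. Shares are to be read beside the 32.5% higher and 31.7% lower over all genes tested, and differences between them were not tested. Of 17 translation factors tested, 4 (23.5%) were higher and 7 (41.2%) lower (median -0.14), and 1 and 10 with library totals. Metap1d, a methionine aminopeptidase, was at -1.03, Gfm2, a ribosome recycling factor, at -0.46 and Tufm, the elongation factor Tu, at 0.55. Of 20 synthetases and amidotransferase subunits that charge mitochondrial tRNAs, 4 (20%) were higher and 12 (60%) lower (median -0.17), with Rars2 at -0.83 and Lars2 at 0.39. Of 12 genes for upkeep and transcription of mitochondrial DNA, 2 (16.7%) were higher and 5 (41.7%) lower (median -0.13). Mgme1 was at -0.37, Ssbp1 at -0.24 and Tfb2m at 0.55. Each of these 8 genes was called. Higher translation factors numbered 2 without control replicate 1. For the mitochondrial DNA list, 2 were lower without control replicate 1 and 3 without BMPi replicate 1 or 3 or with GC and length offsets, and 1 was higher without control replicate 2 or 3 and with library totals.

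Of 12 tested nuclear regulators of mitochondrial genes, 6 (50%) were higher and 3 (25%) lower (median 0.16), beside 32.5% and 31.7% of all genes tested. Myc measured 15.2, 18.3 and 14.97 CPM in BMPi and 2.92, 2.18 and 2.62 CPM in control (2.65, adjusted p = 1.80e-10). Pprc1, a coactivator, was at 0.39 and Ppargc1b, its relative, at -1.15. Of 29 import genes, 7 (24.1%) were higher and 4 (13.8%) lower (median -0.02, and 0.045 with GC and length offsets). Timm17a was at 0.55, Tomm20 at 0.33 and Dnajc19 at -0.50. Lower import genes numbered 2 without control replicate 3 and 6 without BMPi replicate 2, and the median was 0.01 without BMPi replicate 1. Of 15 mitochondrial chaperones and proteases, 7 (46.7%) were higher and 6 (40%) lower (median -0.03), and 5 and 7 with library totals. Phb was at 0.66, Hspd1 at 0.47 and Hspa9 at -0.40. Differences of these shares from those of all genes were not tested.

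Most of the messenger RNAs that mitoribosomes translate were higher. Of 12 mitochondrially encoded genes tested, 11 (91.7%) were higher and 0 lower by edgeR (median 0.69), beside 32.5% and 31.7% of all genes tested. All 12 fold changes were above 0 and DESeq2 called 10 higher and 0 lower. Together they had a sum of 14870, 14280 and 15900 CPM in BMPi and 9168, 8626 and 9238 CPM in control. The highest fold changes among the called were those of mt-Nd1 (0.90), mt-Nd2 (0.88) and mt-Nd5 (0.83), subunits of complex I. A read that aligns to several places was not counted, which affects genes with nuclear copies, and poly(A) selection acts on these RNAs as well. The part of either in these values was not tested.

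**Figure D5:**
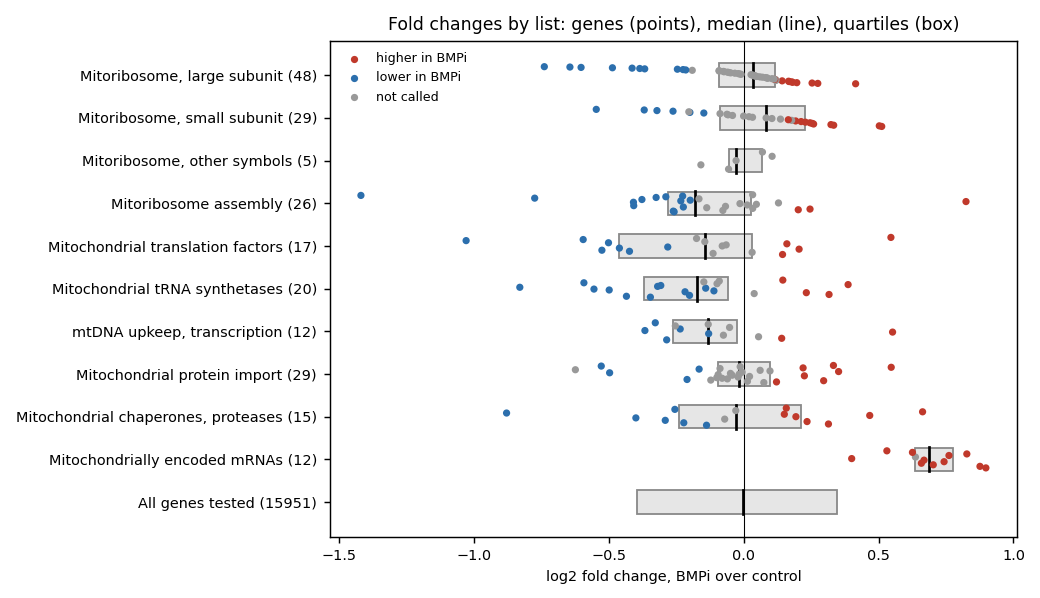
Log2 fold change of BMPi over control (horizontal axis) for each gene (points, coloured by the call) of the mitoribosome subunits and of other mitochondrial gene lists, with the median (line) and quartiles (box) and the same for all genes tested (box only). The medians of the subunits are 0.03 and 0.08, that of the assembly list is -0.18 and that of the mitochondrially encoded mRNAs is 0.69.

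Other cell states were measured beside these results. Their counts of calls are to be read beside the 32.5% higher and 31.7% lower over all genes tested. Differences from those shares were not tested. Markers of pluripotent stem cells summed to 4078, 4333 and 4291 CPM in BMPi and 4421, 4323 and 4489 CPM in control, with none of 8 at 0. Trophectoderm markers summed to between 304 and 381 CPM in BMPi and between 169 and 173 CPM in control (5 of 7 tested higher), and markers of the 2-cell-like state to between 27.4 and 40.2 CPM in BMPi and between 0 and 0.0877 CPM in control (8 of 8 tested higher), where 7 to 9 of 9 were at 0, against 0 of 9 in BMPi. Fibroblast markers summed to between 9.59 and 9.69 CPM in BMPi and between 5.76 and 7.14 CPM in control, with 1 or 2 of 8 at 0 in BMPi and 3 or 4 in control (2 of 4 tested higher). Of the 8 pluripotency markers 2 (25%) were higher and 4 (50%) lower. The part of such cells in the members' values was not tested.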

How the data were processed

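The authors deposited raw read counts per gene, 1 table for each of 6 libraries of poly(A)-selected, strand-marked mRNA; the values were whole numbers with a different total in each library. Build GRCm38.p6 and the tools HTSeq 0.9.1, STAR 2.6.1, cutadapt 1.4.2 and CASAVA 1.8.2 are listed, beside DESeq2 and with no roles, per the submitters' processing notes. The strand setting of the counting and the annotation release are not given in the sources used here, so members whose exons overlap another gene on either strand are uncertain. The 5 rows that name no gene took 25.6% to 26.4% of the reads and entered neither library sizes nor tests.

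Identifiers were matched to GENCODE release M21 (53274 matched, 191 did not). Genes passed the default filter of edgeR 4.0.16 (minimum count 10, minimum total 15), and the 3 BMPi libraries were compared with the 3 control libraries on all 15951 genes by its two-sided quasi-likelihood F test with TMM scaling, with p-values adjusted by Benjamini-Hochberg and called under 0.05. The median standard error was 0.0855 on the log2 scale over all genes and 0.0583 over the members. Levels per kb divide CPM by the length of the merged exons. Nothing states whether the replicates came from separate thawings or days, so p-values measure the spread between these libraries.

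Members named one by one were the 6 largest called rises and falls of each subunit, the 3 highest and 3 lowest per kb, members that failed the filter, and Mrpl12, Mrps12, Mrpl41, Mrps30, Mrps18a, Mrps18b, Mrps18c, Mrps36 and Mrps34; other lists gave the 3 called genes of smallest p, of which 1 is not reported here. Genes outside this rule were named after their values were seen. The members and all lists were chosen with earlier results of these data known. The 16 alternatives were other scalings, other count filters, DESeq2 1.42.0, limma-voom (limma 3.58.1), a replicate block, GC and length offsets (loess span 0.3), both together, and leaving out each library. Promoter windows are RefSeq's on GRCm38.p6. R 4.3.3 and Python 3.11.15 were used.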

Additional observations from a re-analysis of the deposited data

How the results depend on the processing

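Of the 37 called members, 27 (without control replicate 2) to 37 stayed called under each alternative, and all 37 kept their direction under all 16. With library totals, 4 large-subunit genes were higher, 10 small-subunit genes lower and the large-subunit median was -0.024. GC and length offsets gave 19 higher large-subunit genes, and 18 with the block. Leaving out 1 library at a time gave 6 to 14 higher and 9 to 11 lower large-subunit genes (medians 0.009 to 0.057) and 7 to 13 higher and 5 to 8 lower small-subunit genes (medians 0.028 to 0.122). The cause was not tested. The median of all genes moved by less than 0.1 under every alternative, from -0.003 to -0.062 with library totals.

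Signs turned only in members that were not called. Mrps18a was 0.004 with DESeq2 size factors and with the DESeq2 test, 0.002 with the stricter filter, 0.00 with limma-voom, 0.057 with GC and length offsets, and between -0.043 and 0.022 when 1 library was left out. Mrps18b was 0.037 and Mrps18c 0.026 with the offsets, and Mrps18c ran between -0.116 and 0.074 when 1 library was left out. Mrpl12 was -0.010 and Mrps35 -0.026 with library totals, and Mrpl12 ran between -0.018 and 0.092 when 1 library was left out.

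Deviations of same-numbered libraries from their group means correlated at -0.0443, 0.0079 and 0.0287, so no shared replicate effect was seen over all genes tested. Whether the numbers pair the cultures is not stated. The replicate block kept all 37 calls and gave 0.001 for Mrps18a; with offsets it gave 0.058 for Mrps18a, 0.037 for Mrps18b and 0.023 for Mrps18c. Among members not called, the approximate 95% intervals of Mrpl14, Mrpl41, Mrps6, Mrps21 and Mrps33, all with means under 30 CPM, reach beyond 1.2-fold.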
